A study of Mus musculus with 14 samples.

Results

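The I1b pool is a pool of cDNA from neurons that the study classed as one of the inhibitory types of the mouse medial vestibular nucleus, and it was set against the pools of the excitatory types E1 and E2. The medial vestibular nucleus is a brainstem nucleus that receives head motion signals and helps to control gaze and posture. The I1b side has 2 arrays, titled I1b, and the excitatory side has 4, titled E1 and E2, so that 6 of the 14 arrays analysed enter the comparison. The other 8 arrays are of the inhibitory types I1a, I2, I3a and I3b and serve to place the I1b values. They also enter the choice of probe sets, the filter on low values and the error term of the tests. All pools came from brainstem of mice on a C57BL/6 background, aged P24 to P32, with no treatment named. The labels name 3 reporter lines for every pool, GlyT2-13, GIN and YFP-16. In these lines the Slc6a5, Gad1 and Thy1 promoters, in that order, are known to drive a fluorescent protein, and which line gave the cells of which pool is not in the labels. The number of cells in a pool is not in the labels either.

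The pools were made by sorting single-cell cDNAs on markers, ion channels and genes of transmitter use, so that genes of those kinds are no independent evidence of a difference between types. Each pool was hybridised to 2 arrays that the labels call technical replicates, and a p-value over arrays therefore compares pools with each other and says nothing on the spread between cells or animals. A further excitatory type that the study names, E3, was not analysed here. In a pool, cells that each hold both transmitter programmes and a mixture of cells that hold one each cannot be told apart. Likewise, fewer cells that express a gene and less RNA per cell cannot be told apart.

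A neuron's fast transmitter is set by a small set of enzymes and transporters. Glutamate is loaded into vesicles by vesicular glutamate transporters, of which Slc17a6 (VGLUT2) is the usual one of the brainstem. GABA is made by the glutamate decarboxylases Gad1 and Gad2, glycine is taken up from outside the cell by Slc6a5 (GlyT2), and both are loaded by the same vesicular transporter, Slc32a1. In the hindbrain GABA and glycine often occur in the same inhibitory neurons.

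These 5 genes carry the comparison, and the stretches of 250 bases before their start sites are given here because the first 4 stood together in these data and Slc17a6 did not. The sequences are those of RefSeq on build GRCm38.p6, all on the plus strand and read 5′ to 3′. Capitals mark a GC box, here the letters GGGCGG on either strand. For Slc6a5 and Slc17a6 the table used holds 2 start sites, and the window of the first of them is shown. The annotated genes Gad1, Gad2, Slc32a1 and Slc6a5 begin upstream of the windows shown, so that these stretches lie before a start site in the table and not before the outermost annotated start. The windows are Gad1 at chr2:70561879-70562128, Gad2 at chr2:22622077-22622326, Slc32a1 at chr2:158610508-158610757, Slc6a5 at chr7:49910049-49910298 and Slc17a6 at chr7:51621580-51621829.
Gad1: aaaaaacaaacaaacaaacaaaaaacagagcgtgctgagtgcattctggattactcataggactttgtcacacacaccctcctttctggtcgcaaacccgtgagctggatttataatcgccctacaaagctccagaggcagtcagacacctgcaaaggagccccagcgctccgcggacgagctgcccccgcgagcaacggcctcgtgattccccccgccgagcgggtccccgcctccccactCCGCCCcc
Gad2: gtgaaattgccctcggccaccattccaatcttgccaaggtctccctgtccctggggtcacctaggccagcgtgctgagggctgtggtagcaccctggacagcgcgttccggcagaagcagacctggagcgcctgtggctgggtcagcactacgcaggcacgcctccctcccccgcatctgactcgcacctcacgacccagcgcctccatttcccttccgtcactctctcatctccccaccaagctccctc
Slc32a1: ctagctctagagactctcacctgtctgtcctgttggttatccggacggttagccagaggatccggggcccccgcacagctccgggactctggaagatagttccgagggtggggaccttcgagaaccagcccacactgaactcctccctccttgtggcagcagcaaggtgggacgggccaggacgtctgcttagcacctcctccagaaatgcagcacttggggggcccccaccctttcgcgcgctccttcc
Slc6a5: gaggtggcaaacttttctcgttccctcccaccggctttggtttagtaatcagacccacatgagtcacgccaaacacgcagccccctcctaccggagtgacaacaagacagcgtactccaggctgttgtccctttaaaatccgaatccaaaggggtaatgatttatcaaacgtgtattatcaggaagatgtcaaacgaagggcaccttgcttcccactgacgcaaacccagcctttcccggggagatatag
Slc17a6: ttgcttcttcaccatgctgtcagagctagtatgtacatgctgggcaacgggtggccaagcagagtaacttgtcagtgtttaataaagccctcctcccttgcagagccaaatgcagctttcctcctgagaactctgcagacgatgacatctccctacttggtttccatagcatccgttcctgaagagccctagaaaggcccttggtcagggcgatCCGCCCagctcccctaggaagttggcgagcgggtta
The GC box occurred 1 time in the Gad1 window, 1 time in the Slc17a6 window and in none of the other 3, and 32.7% of 32851 such mouse windows hold it. The E-box CAGCTG, which reads the same on both strands, occurred in none of the 5 windows and in 13.0% of all windows. These are matches of letters and not measured binding sites.

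All values are log2 signals, on which 1 unit is a factor of 2 and the lowest value is 2.39. The I1b pool held far more message for GABA and glycine genes than either excitatory pool, while its Slc17a6 lay within 1 unit of both. Gad1 read 10.80 and 10.71 on the I1b arrays, against 7.76 and 7.85 on the E1 arrays and 6.84 and 6.77 on the E2 arrays. Slc32a1 read 9.19 and 9.21 in I1b, against 6.75 and 6.44 in E1 and 5.72 and 5.10 in E2. Both I1b arrays lay above all 4 excitatory arrays for these genes, and both excitatory pools lay well above the floor.

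Slc6a5 read 8.06 and 8.27 in I1b, against 6.29 and 6.34 in E1 and 3.45 and 3.21 in E2. Gad2 read 8.03 and 7.80 in I1b, against 5.64 and 5.79 in E1 and 6.48 and 6.37 in E2. The excitatory pools thus differed in order: E1 was the higher of them for Gad1, Slc32a1 and Slc6a5, and E2 for Gad2. Abat, which breaks GABA down and was chosen for mention after its values were seen, read 9.23 and 8.96 in I1b, against 8.14 and 7.94 in E1 and 7.69 and 7.54 in E2.

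A gene is said to be higher or lower in I1b than both excitatory pools where both differences reached 1 log2 unit in the same direction at an adjusted p under 0.05 in limma's moderated test over arrays. All 4 kept genes of the GABA and glycine list were higher, by a median of 3.27 from the mean of the excitatory pools, against a median of 0.07 over all 4409 genes tested, of which 1.66% were higher by this rule. The study sorted the cells on such genes, so that their direction is not independent. The I1b to E1 difference was 2.95 (SE 0.10, adjusted p = 1.51e-08) for Gad1, and the I1b to E2 difference was 3.95 (adjusted p = 4.83e-10). For Slc32a1 the differences were 2.60 from E1 and 3.79 from E2, for Slc6a5 1.86 from E1 and 4.84 from E2, for Gad2 2.20 from E1 and 1.49 from E2, and for Abat 1.05 from E1 and 1.47 from E2. With the mean of all its probe sets in place of 1, Slc6a5 differed by 1.69 from the excitatory mean and was not called. The other Slc6a5 probe set lay at or next to the floor, with 2.41 in I1b and 2.39 in both excitatory pools.

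Slc17a6 read 10.48 on both I1b arrays, against 11.16 and 11.06 in E1 and 10.998 and 10.959 in E2. The I1b arrays were thus below all 4 excitatory arrays, by 0.63 from E1 (adjusted p = 0.00182) and 0.50 from E2 (adjusted p = 0.0054), too little for a call. The difference from the mean of the excitatory pools was -0.57, with a 95% interval over arrays from -0.78 to -0.36. Among the inhibitory pools I1b was the highest for Slc17a6, since I1a averaged 8.60, I3a 6.93, I3b 3.19 and I2 3.11. Slc17a7, the other vesicular glutamate transporter in the table, read 2.82 in I1b and 2.39 in both excitatory pools, and Slc1a1, a glutamate uptake transporter of neurons, read 6.26 in I1b against 6.39 in E1 and 5.86 in E2. For the 4 GABA and glycine genes the order over inhibitory pools was different: I1b averaged 10.75 for Gad1, the lowest of the 5 but close to I3a at 10.86, with I1a at 11.71, I3b at 12.36 and I2 at 12.38. Gad2 and Slc32a1 were also lowest in I1b among the inhibitory pools, at 7.92 and 9.20, although the I1b arrays did not separate from those of I1a for Slc32a1. Slc6a5, at 8.17, lay above I2 at 7.93 and I3b at 7.53.

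**Figure D1:**
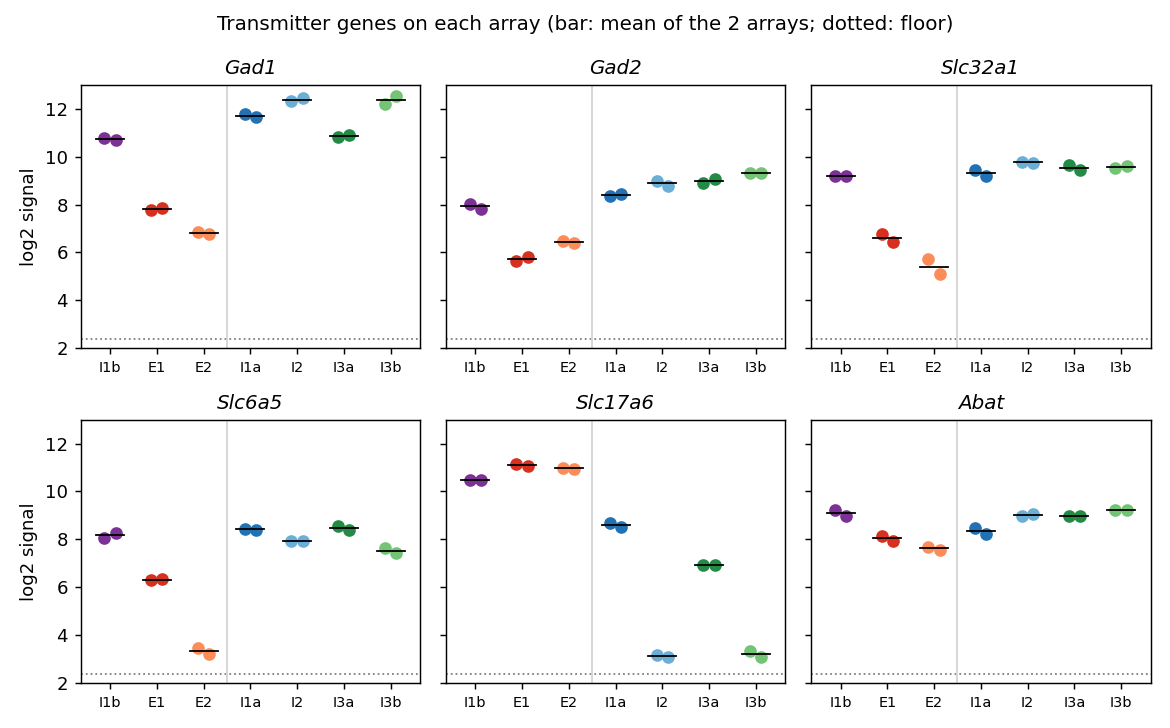
Log2 signal of 6 transmitter genes on each of the 14 arrays (points), with the mean of the 2 arrays of each pool as a bar and the lowest value of the table, 2.39, as a dotted line. I1b sits with the other inhibitory pools for Gad1, Gad2, Slc32a1 and Slc6a5, and next to E1 and E2 for Slc17a6.

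Beyond the transmitter genes, I1b stood nearer to the excitatory pools than to any other inhibitory pool. At an adjusted p under 0.05 and 1 log2 unit, 278 genes (6.31%) were called between I1b and E1, 171 higher and 107 lower in I1b. Between I1b and E2, 357 (8.1%) were called, 223 higher and 134 lower. Between E1 and E2 themselves 326 (7.39%) were called, so that I1b was about as far from each excitatory pool as these were from each other. The counts were larger against the inhibitory pools, with 579 (13.1%) for I1a, 678 (15.4%) for I3b, 714 (16.2%) for I3a and 909 (20.6%) for I2. Across the 4409 genes I1b correlated at r = 0.964 with E1 and 0.958 with E2, at 0.941 with I1a, 0.919 with I3a, 0.906 with I3b and 0.878 with I2, and the excitatory pools at 0.961 with each other. These correlations run over genes, which are not independent, and describe single pools. The array control Lys read 10.34 to 10.87 in I1b, E1, E2 and I1a, and 11.49 to 12.03 in I2, I3a and I3b. The control Dap was split in the same way, with 4.49 to 5.15 against 5.70 to 6.36. The part of this split in the counts and correlations was not tested. In all, 3844 genes (87.2%) lay within 1 unit of both excitatory pools in I1b.

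**Figure D2:**
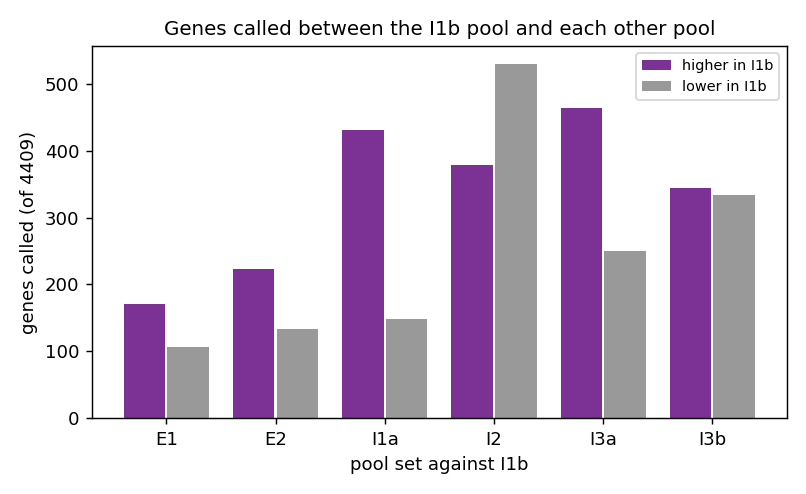
Number of genes of 4409 called between I1b and each other pool (adjusted p under 0.05 and at least 1 log2 unit, limma over arrays), those higher in I1b in purple and those lower in I1b in grey. The shortest pairs of bars are those against E1 and E2, with 171 higher and 107 lower against E1 and 223 higher and 134 lower against E2.

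With the pool as the replicate, no gene passed. In the limma fit on 7 pool means, 0 of 4409 genes (0%) were called between I1b and the excitatory pools, no adjusted p was below 0.999, and the unadjusted p was under 0.05 for 78. That fit has 1 I1b pool, which it takes to vary like the pools of the other groups. No type has a second pool, so its error is the spread between different types. These are E1 and E2 on one side and I1a, I2, I3a and I3b on the other. The absence of calls is therefore no evidence that I1b and the excitatory types are alike. In I1b, 240 genes differed by at least 1 unit from the mean of the excitatory pools. Over arrays, 73 genes (1.66%) were higher and 36 (0.817%) lower in I1b than both excitatory pools. With the arrays centred on their medians the counts were 60 higher and 51 lower, and with quantile normalisation 60 higher and 47 lower. Of the 4409 genes, the I1b arrays lay above all 4 excitatory arrays for 1003 and below them for 545, most of these by less than 1 unit. No test stands behind these counts, and over all 4409 genes the median difference from the excitatory mean was 0.07.

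**Figure D3:**
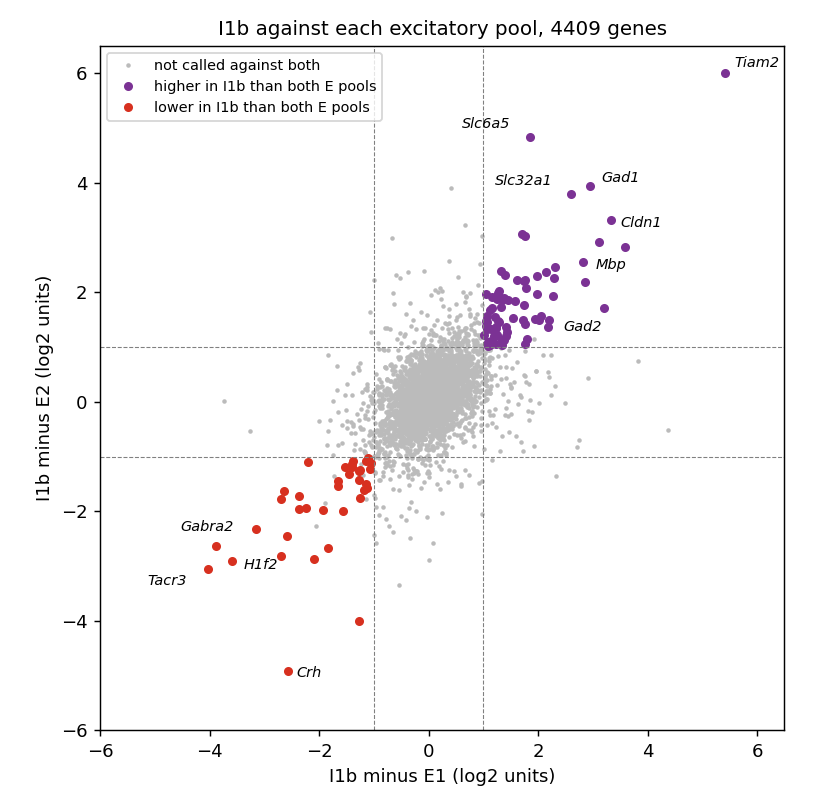
Difference of the I1b mean from the E1 mean (x axis) and from the E2 mean (y axis), in log2 units, for 4409 genes, with the 73 genes higher in I1b than both excitatory pools in purple, the 36 lower in red and dashed lines at 1 unit. Tiam2 is the farthest point on the higher side, and Crh and Tacr3 stand out on the lower side.

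Tiam2, an exchange factor that activates the small GTPase Rac, was the gene with the widest gap on the higher side. It read 8.77 and 8.82 in I1b, against 4.33 and 2.43 in E1 and 2.56 and 3.01 in E2. The differences were 5.41 from E1 (SE 0.60, adjusted p = 7.79e-05) and 6.01 from E2 (adjusted p = 2.75e-05), although the E1 arrays disagreed with each other by more than 1 unit. Tiam2 was also present in I1a at 6.21 and I3b at 6.24, and I1b lay 2.55 above the higher of those. Cadps2, which primes dense-core vesicles for release, read 6.11 and 6.81 in I1b, against 2.76 and 2.97 in E1 and 3.59 and 3.68 in E2. Of the other inhibitory pools, I3a held Cadps2 at 5.86, and the remaining 3 lay between 2.503 and 3.135.

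Several of the genes highest over the excitatory pools were also high in another inhibitory pool, I2. Itm2a, a membrane protein, read 6.45 and 6.62 in I1b, against 3.76 and 3.61 in E1 and 4.24 and 4.47 in E2, and averaged 9.89 in I2. Sema3c, a secreted semaphorin that guides axons, read 4.86 and 5.59 in I1b, against 2.93 on both E1 arrays and 3.0 and 2.93 in E2, and averaged 6.74 in I2. Both excitatory pools lay near the floor for Sema3c. Egfl6, a secreted matrix protein with EGF repeats, averaged 4.89 in I1b, against 2.58 in E1 and 2.42 in E2, and 7.77 in I2. Cldn1, a tight junction protein, averaged 5.74 in I1b, against 2.41 in E1 and 2.42 in E2, and 9.27 in I2. Its probe set is of a kind that can cross-hybridise, and another Cldn1 probe set read below 5 in every pool. Cblb, a ubiquitin ligase, averaged 6.37 in I1b, against 4.23 in E1 and 4.0 in E2, and 5.89 in I2.

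Tmcc3, a membrane protein of the endoplasmic reticulum, was lower in every other inhibitory pool. It averaged 6.10 in I1b, against 2.98 in E1 and 3.19 in E2, and at most 4.44 in the other inhibitory pools. Mbp, a main protein of myelin, read 5.36 and 5.63 in I1b, against 2.93 and 2.43 in E1 and 3.44 and 2.44 in E2, and averaged 6.20 in I3a. Every other Mbp probe set read below 5 in every pool, and these did not agree on the direction. Cnp, an enzyme of myelin-forming cells, read 6.48 and 6.76 in I1b, against 5.54 and 4.99 in E1 and 5.55 and 5.43 in E2, and averaged 9.14 in I3a. Cnp is read by a probe set that can cross-hybridise, and its difference from the excitatory mean was 1.10 and not called without I1b replicate 2, and 0.63 and not called with the mean of its probe sets. Of 9 oligodendrocyte markers in the table, Mbp and Cnp were the 2 that reached 5 in I1b, against 1 in each excitatory pool, Cnp, and the median of the 9 was 2.39 in I1b, 2.46 in E1 and 2.39 in E2. Olig1, Olig2 and Cldn11 lay at or next to the floor in I1b and in both excitatory pools. The part of other cells in the Mbp and Cnp differences was not tested.

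Members of the gene lists on the higher side were Rab3c, Nrxn3 and Cox7c besides those already given. Rab3c, a small GTPase of synaptic vesicles, read 8.86 and 9.0 in I1b, against 7.55 and 7.50 in E1 and 7.77 and 7.70 in E2, by 1.41 from E1 and 1.20 from E2 (larger adjusted p = 4.99e-06). Nrxn3, a presynaptic adhesion molecule of the neurexin family, read 9.87 and 9.97 in I1b, against 8.80 and 8.86 in E1 and 8.96 and 8.82 in E2. Its differences of 1.09 from E1 and 1.03 from E2 lay just past the threshold, and the call was lost when the arrays were centred, at 0.97 from the excitatory mean, or without I1b replicate 2, at 1.01. With the mean of its probe sets it fell to 0.31 (adjusted p = 0.212), since the other 2 Nrxn3 probe sets read below 5 in every pool. Cox7c, a subunit of the last respiratory complex, read 7.83 and 7.81 in I1b, against 5.24 and 4.0 in E1 and 5.92 and 6.32 in E2. Its call was lost with the mean of its probe sets, at a difference of 1.35 (adjusted p = 0.136), and with no filter on low values (adjusted p = 0.0514). Of the 73 genes higher in I1b, 35 had both excitatory means below 5, and 11 stood at least 2 units above the nearer excitatory pool.

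**Figure D4:**
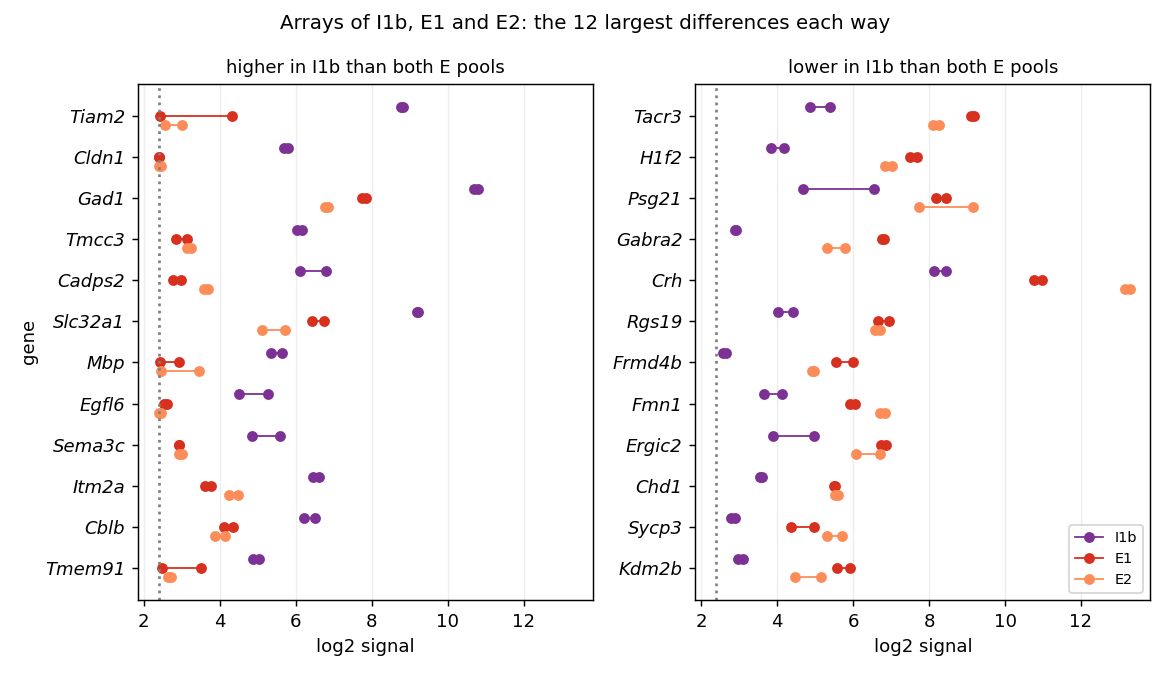
Log2 signal on each array of I1b, E1 and E2 (2 points per pool joined by a line) for the 12 genes with the largest difference from the nearer excitatory pool on each side, with the lowest value of the table as a dotted line. Gad1, Slc32a1 and Tiam2 are high in I1b itself, whereas Cldn1, Egfl6 and Sema3c lie between 4.50 and 5.80 on the I1b arrays with the excitatory arrays near the floor.

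On the lower side, Crh and Tacr3, both of peptide signalling, were among the widest gaps. Crh, the precursor of corticotropin-releasing hormone, read 8.14 and 8.45 in I1b, against 10.98 and 10.76 in E1 and 13.29 and 13.15 in E2. The differences were -2.57 from E1 (SE 0.14, adjusted p = 3.4e-07) and -4.92 from E2 (adjusted p = 6.28e-10). I1b was thus lower than both, while still well above the floor, and E1 itself lay below E2. Among the other inhibitory pools Crh ran from 2.86 in I1a over 4.19 in I3b and 7.73 in I2 to 9.69 in I3a, so that I1b and I1a, which share a name, differed by more than 5 units.

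Tacr3, the receptor for neurokinin B, read 4.88 and 5.38 in I1b, against 9.19 and 9.12 in E1 and 8.26 and 8.11 in E2. The differences were -4.02 from E1 and -3.06 from E2 (larger adjusted p = 2.64e-07), and a second Tacr3 probe set, the first being of the kind that can cross-hybridise, read 3.29 in I1b, against 6.25 in E1 and 5.20 in E2. Most other inhibitory pools read in the range of the excitatory ones or above it, with I1a at 8.36, I3a at 10.79 and I3b at 11.38, and I2 was lower than I1b at 2.74. Gabra2, the alpha-2 subunit of the GABA-A receptor, read 2.90 and 2.92 in I1b, against 6.76 and 6.82 in E1 and 5.77 and 5.30 in E2. It was near the floor in I1a and I3b too, at 2.71 and 3.09, and present in I2 and I3a at 7.59 and 5.84. A second Gabra2 probe set did not repeat the gap, with 5.22 in I1b, against 3.88 in E1 and 5.25 in E2.

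H1f2, a linker histone, read 3.83 and 4.19 in I1b, against 7.69 and 7.50 in E1 and 7.02 and 6.83 in E2, and a second probe set read 4.0 in I1b, against 5.31 in E1 and 5.35 in E2. Rgs19, a regulator of G protein signalling, averaged 4.21 in I1b, against 6.80 in E1 and 6.65 in E2. Its probe set is of the kind that can cross-hybridise, and another Rgs19 probe set read below 5 in every pool. Frmd4b, a scaffold protein with a FERM domain, averaged 2.61 in I1b, against 5.77 in E1 and 4.94 in E2, and Fmn1, an actin-nucleating formin, averaged 3.89 in I1b, against 5.98 in E1 and 6.77 in E2. Psg21, a pregnancy-specific glycoprotein, rests on a probe set that can cross-hybridise and on I1b arrays that differ, at 6.55 and 4.69, against 8.18 and 8.46 in E1 and 7.72 and 9.16 in E2. Its call was lost without I1b replicate 2, where the difference from the excitatory mean was -1.83. Ergic2, a protein of the early secretory pathway, likewise had I1b arrays at 4.98 and 3.88, against 6.72 and 6.87 in E1 and 6.08 and 6.70 in E2. Fos, an immediate early gene, read 3.34 and 3.89 in I1b, against 5.34 and 5.20 in E1 and 4.82 and 5.29 in E2. The lower side leaned on genes that were dim in I1b: 28 of the 36 averaged below 5 there, and 8 stood at least 2 units below the nearer excitatory pool.

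Over all 7 pools, a gene was put in a pattern where the pools on one side lay at least 1 unit from those on the other, a count with no test. I1b and both excitatory pools lay above the 4 other inhibitory pools for 20 genes (0.454%). The same count with another inhibitory pool in the place of I1b was 1 for I1a (0.0227%; Psg21), 0 for I2 (0%), 1 for I3a (0.0227%; Crh) and 0 for I3b (0%). Thus I1b had the largest of these counts, which are of single pools that share the same 14 arrays. The counts are not independent, since a gene that counts for I1b cannot count for another inhibitory pool. Among the 20 are genes of the kinds on which the cells were sorted, such as Slc17a6, Scn4b and Kcna2.

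Slc17a6 is one of the 20 genes, and the largest gap was that of Cntnap5a. Cntnap5a, of the contactin-associated family, read 7.76 and 8.03 in I1b, against 7.84 and 7.49 in E1 and 7.84 and 7.72 in E2, and averaged 4.06 to 4.31 in the other inhibitory pools. Cntn3, a contactin of the cell surface, averaged 6.95 in I1b, against 6.77 in E1 and 6.78 in E2, and 2.98 to 4.10 in the others. Cntn3 has only 1 probe set, of the kind that can cross-hybridise. Scn4b, the sodium channel beta-4 subunit known for its part in resurgent current, read 9.76 and 9.74 in I1b, against 10.22 and 10.09 in E1 and 9.62 on both E2 arrays. In the other inhibitory pools Scn4b averaged 7.45 in I1a, 4.22 in I3a, 2.84 in I2 and 2.82 in I3b. The I1b arrays lay between the excitatory pools for Scn4b, and I1a was the next pool down.

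Unc13c, a vesicle priming factor, averaged 7.38 in I1b, against 6.71 in E1 and 7.44 in E2, and at most 4.62 in the others. Nrn1, a small secreted growth protein, averaged 7.25 in I1b, against 8.20 in E1 and 8.24 in E2, and 5.07 in I1a, with the remaining 3 between 2.88 and 3.08. Hspb8, a small heat shock protein, averaged 7.79 in I1b, against 9.46 in E1 and 7.13 in E2, and at most 4.79 in the others. The Hspb8 probe set is of the kind that can cross-hybridise. Prkg2, a protein kinase that cyclic GMP activates, averaged 5.11 in I1b, against 6.18 in E1 and 6.34 in E2, and at most 3.16 in the others. Prkg2 is thus a gene of this pattern and at the same time lower in I1b than both excitatory pools, a call lost without I1b replicate 1 at a difference of -0.80. Syt2, Nefh, Kcna2 and Thy1 were picked from the 20 for mention after their values were seen. Syt2, a fast calcium sensor of release, averaged 7.91 in I1b, against 8.05 in E1 and 7.52 in E2, and Nefh, the heavy neurofilament, 9.16 in I1b, against 9.79 in E1 and 8.87 in E2. Kcna2, a delayed rectifier subunit, averaged 9.81 in I1b, against 9.74 in E1 and 9.83 in E2, and Thy1, a neuronal surface protein, 11.71 in I1b, against 12.46 in E1 and 12.11 in E2.

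The reverse pattern, with I1b and the 4 other inhibitory pools above both excitatory pools, held 8 genes (0.181%). Of these, 4 were Gad1, Slc32a1, Gad2 and Slc6a5, and the others were Auts2, Fnbp1l, Hmgb3 and Mboat7. Auts2, a nuclear and cytoskeletal regulator of neuron development, read 7.55 and 7.56 in I1b, against 5.70 and 5.88 in E1 and 5.39 and 5.26 in E2, and averaged 6.83 to 9.07 in the other inhibitory pools. With the mean of its probe sets the Auts2 difference was 0.63 and not called. Fnbp1l, which couples membranes to actin, averaged 8.55 in I1b, against 6.76 in E1 and 7.40 in E2. Hmgb3, a chromatin protein, averaged 6.18 in I1b, against 4.98 in E1 and 4.99 in E2, and was not called without I1b replicate 2, at a difference of 0.95. Mboat7, a lipid acyltransferase read by a probe set that can cross-hybridise, averaged 3.89 in I1b, against 2.39 in both excitatory pools, and was not called. Its arrays disagreed in I1a (5.47 and 2.39), I3a (2.39 and 5.23) and I3b (5.39 and 2.46), and the SE of the difference from E1 was 1.07. Few genes thus followed the excitatory and inhibitory names across all 7 pools in either direction: besides these 8, both excitatory pools lay above I1b and all other inhibitory pools for 2 genes (0.0454%), Crh and Prkg2. Both excitatory pools and I1b lay together below the other inhibitory pools for 3 genes (0.068%), which were the laminin subunit Lamb1, the release protein Stx1a and Nhsl1, named after their values were seen.

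**Figure D5:**
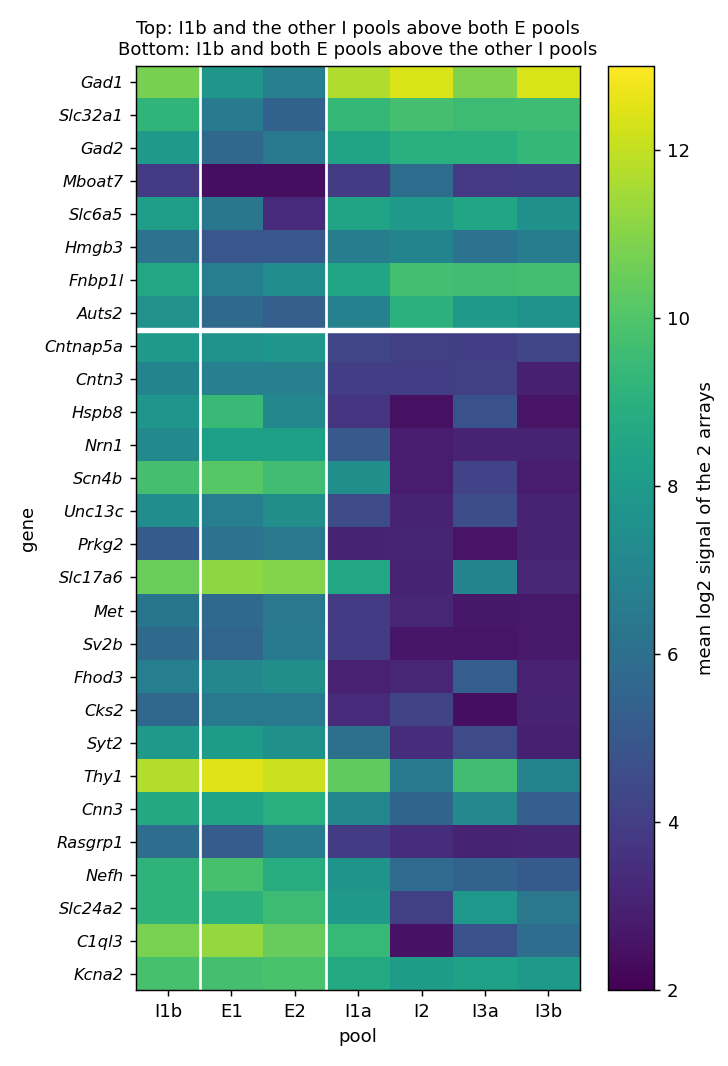
Mean log2 signal of the 2 arrays of each pool (colour) for the 8 genes with I1b and all other inhibitory pools above both excitatory pools (top) and the 20 genes with I1b and both excitatory pools above all other inhibitory pools (bottom), each by at least 1 unit. The I1b column is near the other inhibitory columns in the top block and near E1 and E2 in the bottom block, and the I1a column is intermediate for Slc17a6, Scn4b and Syt2.

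I1b stood alone above all 6 other pools for 10 genes (0.227%) and alone below them for 9 (0.204%), by at least 1 unit. On the higher side these were Tiam2, Tmcc3, Acer3, Wnt5a, Cox7c, Itgav, Wsb2, Ssx2ip and Ccne1, and 1 with a clone-type name. Ccne1 falls outside the rule for named genes and is given to complete the count. Acer3, a ceramidase, read 6.28 and 6.80 in I1b, against 5.22 and 5.08 in E1 and 4.58 and 3.86 in E2. Wnt5a, a secreted Wnt ligand, read 5.22 and 5.14 in I1b, against 3.86 and 3.66 in E1 and 3.45 and 4.17 in E2, and averaged at most 3.28 in the other inhibitory pools. Itgav, an integrin subunit, read 4.91 and 5.77 in I1b, against 4.22 and 4.12 in E1 and 3.32 and 3.54 in E2. Wsb2 was not called, with I1b arrays at 6.48 and 5.25 and E1 arrays at 2.39 and 5.51.

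On the lower side they were Chd1, Rgs19, Sppl2a, Sypl, Kdm2b, Phkb, Zfp932 and Tmeff2, and 1 with a clone-type name. Chd1, a chromatin remodeller, read 3.55 and 3.60 in I1b, against 5.52 and 5.49 in E1 and 5.51 and 5.60 in E2, and averaged 5.82 to 7.16 in the other inhibitory pools. Kdm2b, a histone demethylase, read 2.97 and 3.11 in I1b, against 5.92 and 5.57 in E1 and 5.15 and 4.47 in E2. A second Kdm2b probe set did not repeat the gap, with 4.30 in I1b, against 4.17 in E1 and 4.42 in E2, and the mean of both gave a difference of -1.11, not called. Sypl, a relative of synaptophysin, read 3.81 and 4.39 in I1b, against 5.80 and 5.21 in E1 and 5.41 and 5.05 in E2. All 9 averaged below 5 in I1b, so that these gaps lie in the dim range.

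Lists of genes for excitability, release and energy supply are given next, beside 1.66% higher and 0.817% lower over all genes, so that 0 or 1 call in a list of this size is near the background and sets no list apart. Genes named here that were not called were picked after their values were seen, and the study sorted the cells partly on ion channels. Of 11 sodium channel genes kept, 0 were higher and 0 lower, with a median difference from the excitatory mean of 0.16 and 10 of the 11 within 1 unit. Scn1a averaged 11.47 in I1b, against 11.44 in E1 and 11.20 in E2, and Scn8a, the other main pore subunit of adult neurons, 9.29 in I1b, against 9.65 in E1 and 9.48 in E2. The exception was Fgf13, a modulator of sodium channels, with 8.11 in I1b, against 6.03 in E1 and 7.27 in E2, where the difference from E2 stayed under 1 unit. Of 22 potassium channel genes kept, 0 were higher and 0 lower, with a median of 0.02. Kcna1 averaged 9.39 in I1b, against 10.02 in E1 and 9.05 in E2, and Kcnc1, a channel of fast repolarisation, 10.80 in I1b, against 10.66 in E1 and 10.27 in E2. Kcnab1, an auxiliary subunit, averaged 7.07 in I1b, against 6.13 in E1 and 4.56 in E2, a difference of 0.94 from E1 and 2.51 from E2.

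Of 4 neurofilament genes kept, 0 were higher and 0 lower, and all 4 differences from the excitatory mean were negative, with a median of -0.25 and a range from -0.38 to -0.03. Nefm averaged 7.73 in I1b, against 8.68 in E1 and 7.45 in E2, so that I1b lay between the excitatory pools. Of 20 vesicle release genes, Rab3c was higher and 0 were lower, with a median of 0.17. Snap25, a core fusion protein, averaged 13.57 in I1b, against 13.39 in E1 and 13.25 in E2, and Cplx1, which clamps and speeds fusion, 12.83 in I1b, against 12.97 in E1 and 12.64 in E2. Of 10 synaptic vesicle proteins, Sypl was lower and 0 were higher, with a median of -0.14. Of 66 respiratory chain genes, Cox7c was higher and 0 were lower, with a median of 0.08, and of 13 glycolysis genes 0 were higher and 0 lower, with a median of 0.03. The medians of these lists lay within 0.4 units of the 0.07 of all genes.

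Receptors and calcium-binding proteins are given in the same way, and their counts of 0 or 1 are likewise read against 1.66% higher and 0.817% lower. Of 11 GABA-A and glycine receptor genes, Gabra2 was lower and 0 were higher, with a median of 0.13. Glra1, the adult glycine receptor subunit, averaged 11.52 in I1b, against 11.06 in E1 and 10.24 in E2, and Slc12a5, the chloride exporter that makes these receptors inhibitory, 11.60 in I1b, against 11.29 in E1 and 11.24 in E2. Of 6 glutamate receptor genes, 0 were higher and 0 lower, with a median of 0.48. The largest of these differences was that of Grid1, with 7.20 in I1b, against 6.32 in E1 and 5.74 in E2. Of 9 neuromodulator receptors, Tacr3 was lower and 0 were higher, and Htr1d, a serotonin receptor, set the excitatory pools apart from each other, with 6.41 in I1b, against 7.08 in E1 and 3.42 in E2. Of 10 calcium-binding proteins, 0 were higher and 0 lower. Calb2 (calretinin) averaged 7.29 in I1b, against 6.62 in E1 and 4.06 in E2, while Necab1 averaged 8.77 in I1b, against 6.44 in E1 and 10.12 in E2.

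For genes of wiring and of cell identity the same shares over all genes, 1.66% higher and 0.817% lower, are the background. Of 22 axon guidance genes Sema3c was higher, of 14 synaptic organisers Nrxn3 was higher, of 25 adhesion molecules none was called, and none of these lists held a gene lower in I1b, with medians of -0.05, 0.01 and 0.22. Pcdh8, a protocadherin, came close among the adhesion molecules, with 9.53 in I1b, against 8.56 in E1 and 6.50 in E2, and averaged at most 6.28 in the other inhibitory pools. Of 18 hindbrain position factors, 0 were higher and 0 lower, with a median of 0.19. Zic1, a zinc finger factor of the dorsal hindbrain, averaged 7.92 in I1b, against 8.28 in E1 and 9.85 in E2, and 3.63 in I1a, 2.71 in I2 and 3.0 in I3b, with I3a at 8.22. Of 4 excitatory fate factors kept, 0 were called and all 4 differences were negative, with a median of -0.47, and of 15 inhibitory fate factors in the table none reached 5 in any pool. Of 13 neuropeptide and granin genes, Crh was lower and 0 were higher.

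The pools read as neurons throughout. All 5 neuron markers in the table reached 5 in every pool, and Rbfox3 (NeuN) averaged 9.48 in I1b, against 10.45 in E1 and 10.78 in E2. Of 10 astrocyte markers only S100b reached 5, at 7.76 in I1b, against 9.02 in E1 and 7.06 in E2, and no marker of microglia, endothelium, Purkinje cells or motor neurons reached 5 in any pool. Arrays of the same pool correlated at r = 0.982 to 0.992. The array controls moved somewhat with the pools. The hybridisation control BioB read 7.64 and 8.11 in I1b, against 8.36 and 8.10 in E1 and 9.10 and 8.87 in E2. Lys and Dap went the other way, with both I1b arrays above every excitatory array. Lys read 10.87 and 10.81 in I1b, against 10.53 and 10.45 in E1 and 10.395 and 10.34 in E2. Dap read 5.04 and 5.15 in I1b, against 4.85 and 4.55 in E1 and 4.94 and 4.49 in E2. The 3' to middle difference of Gapdh tells how far the signal leans to the 3' end of the transcript. It was 2.55 and 2.44 in I1b, against 2.10 and 2.15 in E1 and 2.08 and 2.41 in E2. The part of these differences in the gene results was not tested.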

How the data were processed

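Single-cell cDNAs of 7 neuron types were pooled by type and hybridised as biotin-labelled cRNA to Affymetrix arrays, 2 technical replicates per pool, per the labels' protocols. The deposited values are log2 signals, made by the authors with affy and GCRMA per the submitters' processing notes, whose versions are not given in the sources used here. GCRMA usually gives log2, and the range of 2.387 to 15.9 fits that base. No rescaling was added. Of 30843 probe sets, 64 are controls, 24034 name 1 gene in the platform annotation, 477 several and 6268 none, and 23883 matched RefSeq (GRCm38.p6) by Entrez identifier. For each of 16244 genes, the probe set with a single symbol and the highest mean over 14 arrays was used. A gene was kept where at least 1 type averaged 5 or more, which left 4409 (27.1%), and 15.1% to 16.4% of probe sets reached 5 per array. Kept genes with clone-type names (119) enter the counts and are not named. The number of arrays and pools limits the precision.

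Tests used R 4.3.3 with limma 3.58.1 (lmFit, eBayes with trend) and Benjamini-Hochberg adjustment over all kept genes. Pools were tested on 7 means in the groups I1b, E and other I (4 residual degrees of freedom), and arrays with 1 mean per type (7 residual degrees of freedom, technical error). Scripts were tested on simulated data. The genes named were the 12 largest calls per side by difference from the nearer excitatory pool, up to 4 called genes per list, up to 8 per pattern, the transmitter genes and the markers. Genes named outside this rule are marked in the text. The members and gene lists were chosen with earlier results of these data known. Replicate numbers of arrays gave no sign of pairing them across the I1b, E1 and E2 pools. The alternatives are given in the closing section. Figures used matplotlib 3.10.9.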

Additional observations from a re-analysis of the deposited data

Results flagged for a closer look

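Probe sets with no gene symbol in the platform annotation entered none of the comparisons above. Of 351 of them that reached a mean of 5 in at least 1 type, 7 were higher and 3 lower in I1b than both excitatory pools by the same rule (2.85%), in the limma fit over arrays. The shares over all named genes tested were 1.66% higher and 0.817% lower, so that the called share is near the background. They are listed because they lie outside the main measurement. Which transcripts they read was not tested.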

How the results depend on the processing

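With the pool as the replicate, calls between I1b and the excitatory pools numbered 0, and also 0 without any 1 array. They numbered 9 with no filter on low values (among them Wnt5a) and 2 with values under 5 set to 5 (Tmcc3 and Acer3). With arrays entered and the pool as a random block they numbered 2 (Gad1, adjusted p = 0.0343, and Slc32a1, adjusted p = 0.0354). With no filter, 16244 genes were tested, those below 5 in every type included, and the unadjusted p was under 0.05 for 1115. The 9 differences from the excitatory mean were at most 1.68 in size. The part of values near the floor in the calls with no filter or with values set to 5 was not tested. Genes higher in I1b than both excitatory pools numbered 73, against 36 with a filter at 7, 48 with values under 5 set to 5 and 37 with the mean of all probe sets of a gene. Genes lower in I1b numbered 36, against 14, 12 and 18 under the same settings. Calls between I1b and E1 numbered 278, against 139, 167 and 153, and between I1b and E2 357, against 195, 225 and 182. Fewer genes are tested under the higher filter, and dim genes lose their difference by construction when raised to 5. With the mean of all probe sets, 3164 genes were tested. Of the other probe sets of called genes, 82 read below 5 in every pool, and such probe sets shrink a mean difference by construction. The part of each in the fall was not tested. Leaving out 1 array at a time gave 61 to 83 genes higher, 32 to 49 lower, 242 to 286 called against E1 and 333 to 387 against E2. No result turned its direction. Of 44 named genes with a call, 15 kept it in every alternative over arrays in which they were tested. Some were not tested in all of these, as Tmcc3 and Cadps2 did not pass the filter at 7. Fits on pool means are not among these alternatives. With the mean of all probe sets of a gene, Slc6a5 (1.69), Cox7c (1.35), Cnp (0.63), Auts2 (0.63), Nrxn3 (0.31), Psg21 (-1.22), Kdm2b (-1.11) and Gabra2 (-0.96) were not called, as differences from the excitatory mean. With no filter, Psg21, Sypl, Cox7c, Hmgb3, Itgav, Phkb and Zfp932 were not called, and with quantile normalisation or centring Nrxn3 and Ssx2ip were not. Leaving out 1 array ended named calls at these differences from the excitatory mean. Without I1b replicate 1 they were -0.98 for Sypl, -0.80 for Prkg2 and -1.30 for Phkb. Without I1b replicate 2 they were -1.83 for Psg21, 1.01 for Nrxn3, 1.10 for Cnp, 0.95 for Hmgb3, 1.30 for Fnbp1l, 1.10 for Itgav and -0.89 for Zfp932. Without E1 replicate 1 they were 1.02 for Hmgb3, -1.05 for Prkg2 and -1.0 for Zfp932, and without E1 replicate 2 -2.69 for Psg21 and 1.51 for Itgav. Without E2 replicate 1 they were -1.18 for Sypl, 0.99 for Ssx2ip, -1.60 for Phkb and -1.08 for Zfp932, and without E2 replicate 2 -2.40 for Psg21 and 1.02 for Nrxn3. With values under 5 set to 5, the named genes that lost their calls included Gabra2, Cldn1, Egfl6, Sema3c, Mbp, Frmd4b, Fmn1, Chd1, Kdm2b and Fos.

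With the replicate number as a block, the counts were 73 higher, 36 lower, 279 against E1 and 359 against E2, and 0 on pool means. Deviations of same-numbered arrays correlated at -0.12 between I1b and E1, at -0.05 between I1b and E2 and at 0.06 between E1 and E2. The numbers thus gave no sign of pairing the arrays of these pools. Among the other pairs of pools the highest values were 0.212 between E1 and I1a and 0.208 between E2 and I1a.

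One pool per type and technical arrays leave the spread between cells and animals unmeasured. Many calls rest on signals below 5 on one side and on 1 probe set: of 109 called genes 49 have only 1. Of the called genes, 9 were read by a probe set with a name in _x_at, a kind that can cross-hybridise. Other kinds of probe set that may match several transcripts were not counted. Of the other probe sets of called genes, 82 read below 5 in every pool, 9 differed in the same direction and 2 did not.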
